A study of Mus musculus with 16 samples.

Results

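The imprinted gene loci described here held 49 regions of accessible chromatin, out of 81132 in a merged ATAC-seq list from mouse embryonic stem (ES) cells. A region was a member when its centre lay in the gene body, or within 50 kb of an annotated transcription start site (TSS), of H19, Igf2, Igf2r, Peg3, Meg3, Dlk1, Snrpn, Kcnq1ot1, Mest or Plagl1 (GENCODE M21, mm10). Of the 49 regions, 46 belonged to 1 locus and 3 to 2 loci, with 2 regions shared by H19 and Igf2 and 1 by Meg3 and Dlk1. With each locus taken by itself, the region nearest the distance limit lay 47.7 kb from an Igf2 TSS, and the nearest region left out lay 51.3 kb from a Dlk1 TSS. Regions are numbered along the chromosome under the member gene whose TSS is closest.

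ATAC-seq inserts adapters into accessible DNA with the Tn5 transposase, and the study used it to ask how chromatin differs between ES cells with high and low levels of the pluripotency factors SOX2 and OCT4. The cells were SBROS, a clonal knock-in line of CGR8 background with a SNAP tag on both Sox2 alleles, a HALO tag on a single Oct4 allele and fluorescent reporters for SOX1 and BRA, so all values describe 1 clone. Cells grown in serum with LIF, CHIR99021 and PD184352 were stained with HaloTag TMR, SNAP-SiR647 and Hoechst and sorted in G1 phase into 4 populations, with 3 replicates each. The populations were SHOH (high SOX2-SNAP, high OCT4-HALO), SHOL (high SOX2-SNAP, low OCT4-HALO), SLOH (low SOX2-SNAP, high OCT4-HALO) and SLOL (low for both). The list pools all 12 libraries and gives positions only, so a region has no level, replicate error, population or parental allele here, and the list gives no read count for it. Promoters, which here reach from 1000 bp before a TSS to 100 bp after it, overlapped a region in 6 of 7 ES cell marker genes, Nanog being the exception, but also in all 11 marker genes of other lineages examined, so presence in the list did not separate cell types.

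Imprinted genes are expressed mainly from the copy inherited from the mother or from the copy inherited from the father. Each cluster is governed by a control region that is methylated on a single parental copy, set in the egg for the promoter sites of Airn, Peg3, Snrpn, Kcnq1ot1, Mest and Plagl1 and in sperm for the H19 control region and the Dlk1-Meg3 intergenic site. The zinc finger protein ZFP57 binds the methylated hexamer TGCCGC and helps to keep this methylation in early embryos and ES cells, whereas CTCF binds the unmethylated H19 control region and insulates Igf2 from distal enhancers.

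The sequences below are shown so that some of the motif matches counted in control-site regions can be read in place. Each is read from GRCm38 (the assembly of mm10) on the strand of the member gene, and capitals mark every match, on either strand, of the ZFP57 hexamer TGCCGC, the CTCF core GGNGGCAG, the YY1 motif GCCATNTT, the octamer ATGCAAAT or the SOX motifs CCATTGT and CCTTTGT. From a region longer than 200 bases, the 200 bases with the most matches, and among equals the most CpGs, outside annotated untranslated exons are given.
Plagl1 region 5, chr10:13091033-13091232, plus strand: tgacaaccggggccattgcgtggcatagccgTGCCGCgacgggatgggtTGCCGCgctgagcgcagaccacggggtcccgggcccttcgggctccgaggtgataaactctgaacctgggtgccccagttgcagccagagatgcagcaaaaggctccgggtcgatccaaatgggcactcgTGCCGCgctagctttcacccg
Igf2r region 3, chr17:12742187-12742386, minus strand: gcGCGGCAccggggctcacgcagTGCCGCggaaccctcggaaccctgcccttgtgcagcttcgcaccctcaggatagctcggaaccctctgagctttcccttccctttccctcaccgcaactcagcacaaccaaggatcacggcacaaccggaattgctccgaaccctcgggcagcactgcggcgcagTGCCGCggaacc
Snrpn region 2, chr7:60004702-60004901, minus strand: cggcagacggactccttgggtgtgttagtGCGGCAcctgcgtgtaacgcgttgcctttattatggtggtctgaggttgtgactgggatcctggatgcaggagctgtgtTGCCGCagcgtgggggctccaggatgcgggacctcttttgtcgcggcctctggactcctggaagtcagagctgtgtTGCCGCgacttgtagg
Peg3 region 4, chr7:6729451-6729650, minus strand: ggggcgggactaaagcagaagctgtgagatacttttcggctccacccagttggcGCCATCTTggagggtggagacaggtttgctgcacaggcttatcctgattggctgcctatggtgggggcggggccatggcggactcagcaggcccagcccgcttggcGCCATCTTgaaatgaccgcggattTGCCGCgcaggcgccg
Kcnq1ot1 region 2, chr7:143296408-143296607, minus strand: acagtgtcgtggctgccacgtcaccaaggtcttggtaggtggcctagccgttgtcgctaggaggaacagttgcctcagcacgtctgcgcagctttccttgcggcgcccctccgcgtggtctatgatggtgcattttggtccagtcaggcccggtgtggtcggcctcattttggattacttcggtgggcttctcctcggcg
Meg3 region 1, chr12:109525822-109525952, plus strand: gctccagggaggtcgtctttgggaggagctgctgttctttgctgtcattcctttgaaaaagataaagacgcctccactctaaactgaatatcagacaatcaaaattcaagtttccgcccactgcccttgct
Meg3 region 2, chr12:109527466-109527665, plus strand: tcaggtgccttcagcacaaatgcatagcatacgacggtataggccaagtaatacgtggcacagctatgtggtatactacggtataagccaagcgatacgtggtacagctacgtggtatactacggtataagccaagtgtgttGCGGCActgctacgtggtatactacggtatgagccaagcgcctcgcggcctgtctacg
The stretches of Plagl1 region 5, Igf2r region 3 (in the Airn control-site window, downstream of the TSS) and Snrpn region 2 each carried 3 copies of the ZFP57 hexamer. Peg3 region 4 carried 1 copy of it in the stretch shown beside 2 copies of the YY1 motif, and Meg3 region 2 carried 1 copy. The stretch of Kcnq1ot1 region 2 and the whole of Meg3 region 1 held no match. In Meg3 region 2 the 8-base word GTATACTA recurred 4 times at a spacing of 44 bp, and 0.822% of all regions of like width (within 10%) repeated a word that uses all 4 bases as often. Shares of this kind, here and for genes, count the described region or gene itself where it belongs to the set.

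The loci differed in how many regions they held. Meg3, the maternally expressed noncoding RNA of the Dlk1-Meg3 cluster, had 9 regions, and Plagl1, a zinc finger gene, had 8. Snrpn, which encodes a small ribonucleoprotein subunit, and Kcnq1ot1, the antisense RNA that silences its neighbours, had 2 each. The other 6 loci lay between these, with 4 regions at Mest, 5 each at H19, Igf2r and Dlk1, and 6 each at Igf2 and Peg3. Under the same rule the median protein-coding gene had 6 regions (quartiles 3 and 10, 21938 genes), so 6 loci were below that median, 2 at it and 2 above it. Per 100 kb of window, Snrpn had 0.851 regions and Kcnq1ot1 1.40, against 8.31 at Meg3 and a median of 5.00 over protein-coding genes. Over the union of the windows (1.31 Mb) the density was 3.73 regions per 100 kb, and over chromosomes 1 to 19, X and Y it was 2.98. The largest stretch without a region was at Snrpn, whose window was empty for 185 kb, including the upstream TSS at 60140219 on chromosome 7.

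**Figure D1:**
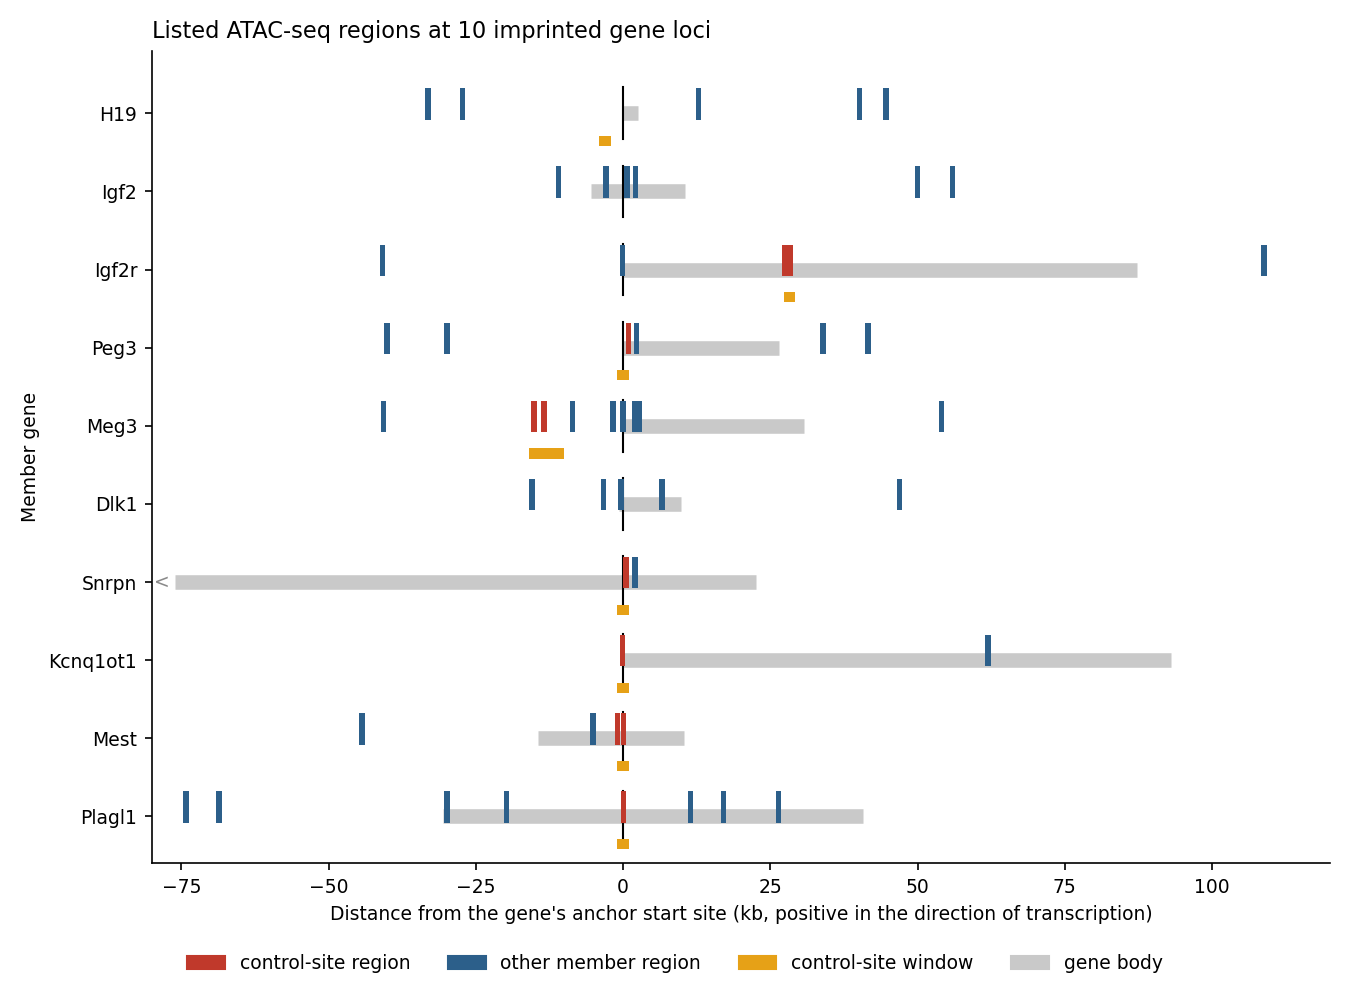
Positions of the 49 member regions (marks of fixed width) by distance in kb from an anchor TSS of each gene, which is the CpG-richest TSS for promoter sites and otherwise the reference TSS (the one near the most annotated starts). Red marks are the 10 regions in control-site windows (yellow), blue marks are the other 39, the Snrpn gene body continues past the left edge, and the H19 control-site window holds no mark.

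How the share of member regions in promoters compared with other regions depended on the definition and on the comparison set. By the position of the centre, 17 of 49 (34.7%, 95% Wilson interval 22.9 to 48.7%, counting error only) were in a promoter of any gene. Over the loci of all protein-coding genes, taken by the rule used for the members, this share was 24.9% with each region counted once and 32.8% summed over loci, and it was 21.0% in the whole list. Another 19 (38.8%) were in introns, 4 (8.16%) in other exons and 9 (18.4%) between genes, where the protein-coding loci had 24.5% of their regions (21.9% summed over loci). A lower share between genes than the 35.2% of the whole list follows from the rule, which selects by distance to genes. With promoters taken as 2000 bp to either side of a TSS the share was 59.2%, against 39.7% at the protein-coding loci (50.1% summed over loci) and 34.0% in the whole list. By the main definition 8 of the 17 were in a promoter of a member gene and 9 in promoters of other genes only. Among the 9, H19 region 1 was at Mrpl23, a mitochondrial ribosomal protein gene, Mest region 1 at Cep41, a centrosomal protein gene, Peg3 regions 1 and 2 at Zim1, Igf2 regions 1 and 3 at Igf2os, Igf2r region 2 at Airn, Meg3 region 3 at Gm27528 and Meg3 region 8 at the microRNA gene Mir136. The closest annotated TSS was that of a member gene for 21 regions and of another gene for 28.

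Widths resembled those of the list. The median member was 350 bp wide (95% interval of the median 246 to 422 bp), against 355 bp for all regions, and 24 of 49 were wider than that. The narrowest was Meg3 region 4 with 115 bp and the widest was Peg3 region 3 with 1757 bp, at percentile 99.8 of the widths of all regions. The ratio of observed to expected CpG dinucleotides, which is low where methylated CpGs have been lost over evolution, had a median of 0.345 (0.274 to 0.499) over members and 0.300 over all regions. Meg3 region 2, in the Dlk1-Meg3 intergenic site, had the highest ratio among members, 1.08, at percentile 99.8 of all regions. Kcnq1ot1 region 1 and Plagl1 region 6 contained no CpG.

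**Figure D2:**
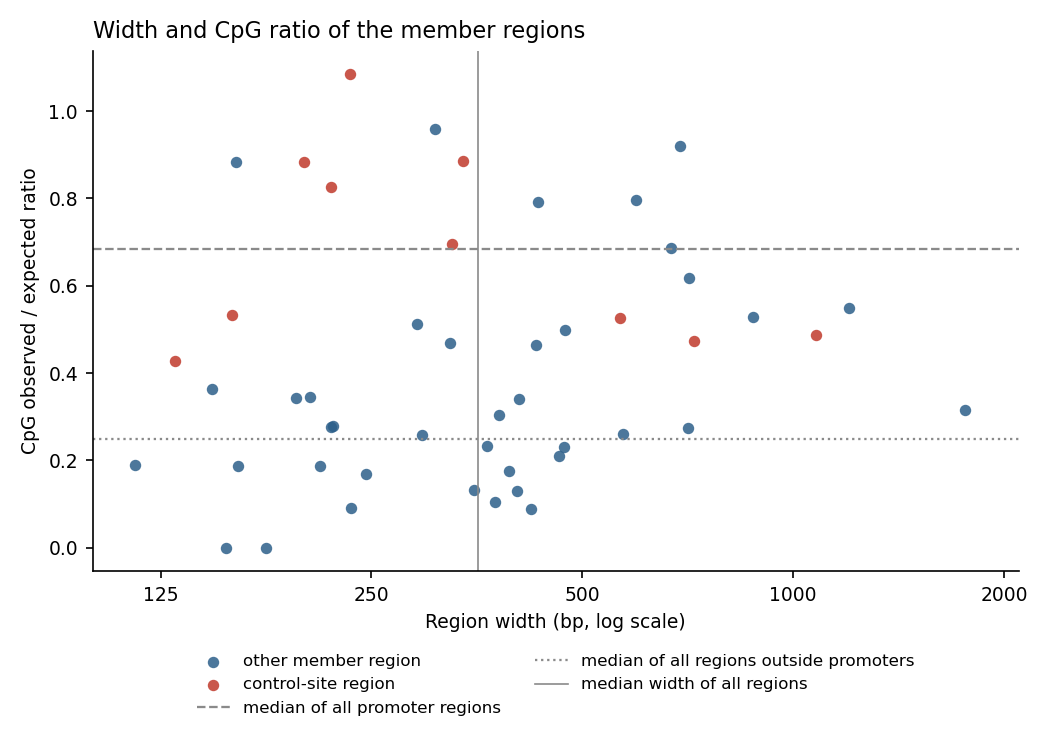
CpG observed/expected ratio against width in bp (log scale) for the 10 control-site regions (red) and the 39 other member regions (blue), with lines at the median width of all regions and at the median ratios of promoter regions and of regions outside promoters. All control-site regions lie above the median of regions outside promoters (0.250), while their widths fall on both sides of the median width of 355 bp.

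Of the 8 imprinting control sites, 7 had a region and the H19 control region had none. Having a region was usual for such promoters: of protein-coding genes with a similar CpG count around the TSS, 1.75 to 3.03% had none for 5 of the 6 promoter sites, and 23.1% had none for Snrpn. The sites were placed from general knowledge of where they lie, without methylation data from these cells, and all control-site values rest on that placement. The 6 promoter sites were taken as 1000 bp to either side of the CpG-richest TSS, the H19 control region as 2000 to 4000 bp upstream of the H19 reference TSS, and the Dlk1-Meg3 site as 10000 to 16000 bp upstream of that of Meg3. In all, 10 regions overlapped these windows. Their median width was 279.5 bp, against 375 bp for the other 39 members. Their median CpG ratio was 0.614 (0.472 to 0.887), against 0.278 (0.210 to 0.464) for the other members and 0.685 for all promoter regions of the list. Placing the windows at CpG-rich TSSs selects for a high ratio, so this difference is partly built in.

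Among the promoter sites, Snrpn was covered most. Snrpn region 2 (chr7:60004067-60005143, 1077 bp) ran from 32 bp upstream to 1044 bp downstream of the CpG-richest Snrpn TSS, into an intron. It covered 51.6% of the 2001 bp window and held 39 of its 48 CpGs. At Airn, the antisense RNA that starts in an intron of Igf2r and silences it on the paternal copy, 2 regions (chr17:12741052-12741617 and chr17:12742187-12742386) covered 38.3% of the window. Kcnq1ot1 region 2 (chr7:143296276-143296996), within an intron of the potassium channel gene Kcnq1, spanned the TSS from 447 bp upstream to 273 bp downstream and covered 36.0%. In these 3 sites, as at Mest, the TSS itself was inside a region.

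Coverage was smaller at Mest, Peg3 and Plagl1. Mest, which encodes a hydrolase-fold protein, had a 338 bp region over its CpG-rich TSS (chr6:30737968-30738305) and a 158 bp region upstream of it, together 23.5% of the window. At Peg3, a zinc finger gene, the only region in the window was Peg3 region 4 (chr7:6729400-6729725), which began 706 bp downstream of the TSS and covered 14.7%. Plagl1 region 5 (chr10:13091024-13091242) began 11 bp downstream of the CpG-richest TSS and covered 10.9%. Most CpGs lay outside the listed regions in 5 of the 6 promoter-site windows: regions held 45.8% of them at Airn, 39.1% at Mest, 30.8% at Kcnq1ot1, 20.7% at Peg3 and 17.0% at Plagl1. Snrpn, with 81.3%, was the exception.

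Promoters with a similar number of CpGs offered a scale for these values. Around the reference TSS of the 2404 protein-coding genes whose 2001 bp windows held within 10% of the 112 CpGs of the Plagl1 window, regions covered a median of 925 bp (quartiles 724 and 1102 bp), against 219 bp at Plagl1, and 3.24% of these genes were covered as little or less. For Peg3 the covered length was 295 bp against a median of 869 bp, with 5.29% of genes at or below it. For Mest it was 470 bp against 919 bp, with 7.80% of genes at or below it. Airn (766 bp against 818.5 bp) and Kcnq1ot1 (721 bp against 791 bp) were inside the quartiles of their comparison genes. Snrpn went the other way, with 1033 bp against 501 bp, and 96.1% of genes with a similar CpG count were covered as little or less. This rests on the anchor, since the sites were centred on the CpG-richest TSS and the comparison genes on the reference TSS. The reference TSS of Snrpn, at 60140219, lay 135076 bp from the closest region, so no region was within 1000 bp of it. Centred on the CpG-richest TSS, 3 of 6 promoter sites were below the lower quartile of genes with a similar CpG count and 1 above the upper quartile. The cause of these differences was not tested.

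**Figure D3:**
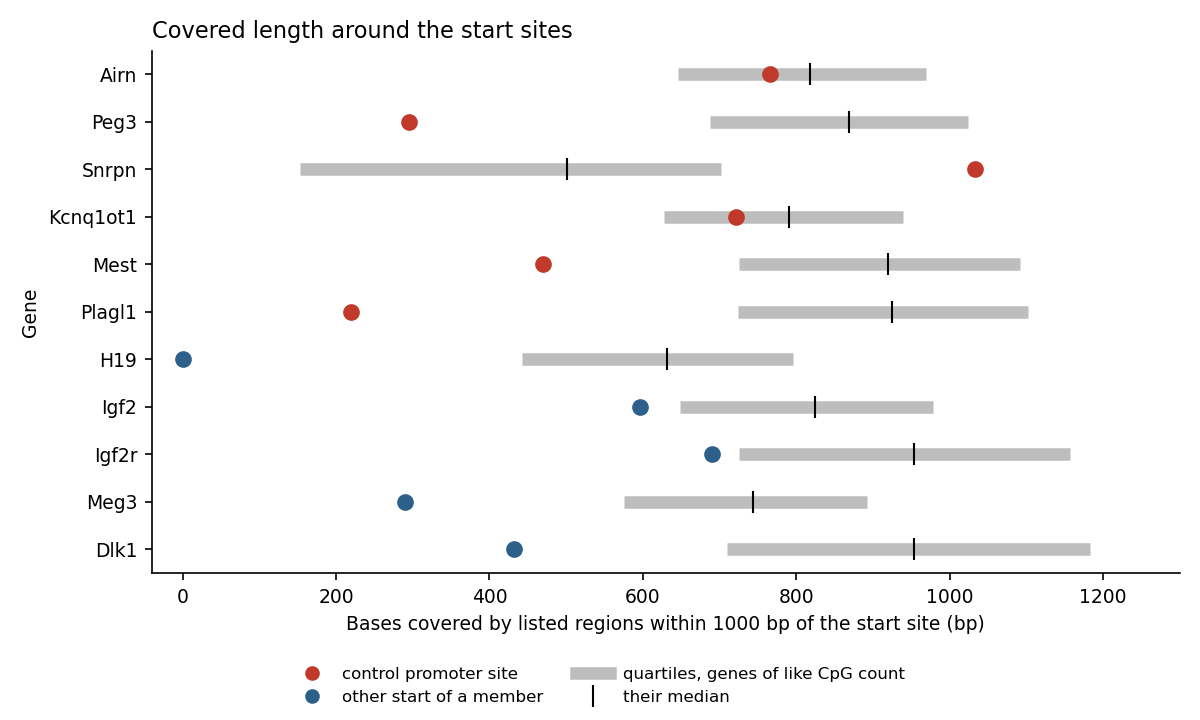
Bases covered by regions within 1000 bp of the TSS (horizontal axis, bp) for the 6 promoter sites (red) and the reference TSSs of the other 5 member genes (blue), beside the quartiles and median of protein-coding genes with a similar CpG count. Peg3, Mest, Plagl1 and all 5 blue points lie left of the quartile bars, and Snrpn lies right of its bar.

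The other 5 member genes were also covered less than promoters of protein-coding genes of like CpG count, each below the lower quartile. H19 and Meg3 are lincRNA genes, and they were not compared with genes of their own class here. Igf2r, the receptor that clears the growth factor IGF2, had a region across its TSS (chr17:12769424-12770113, 690 bp, against a median of 953.5 bp). Dlk1, a paternally expressed Notch-like ligand, had Dlk1 region 3 (chr12:109452883-109453314, 432 bp, against 954 bp) between its annotated starts. Meg3 region 5 (chr12:109540841-109541130, 290 bp, against 743 bp) spanned the first Meg3 TSS. Igf2, the fetal growth factor, had Igf2 region 2 (chr7:142660339-142660934, 596 bp, against 824.5 bp) starting 371 bp downstream of its reference TSS. H19, the maternally expressed noncoding RNA, had 0 bp against 632 bp, and 9.28% of genes with a similar CpG count also had 0 bp.

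Counted over genes, 8 of 10 members had an accessible promoter (80.0%, 49.0 to 94.3%), against 66.5% of protein-coding genes, 19.7% of lincRNA genes and 34.1% of antisense genes in the annotation. H19 and Peg3 were the exceptions. Peg3 was counted once the promoter was widened to 2000 bp on either side, since its closest region began 694 bp from an annotated TSS. When the centre of the region had to lie in the promoter, the count fell to 5, because the regions of Igf2, Plagl1 and Snrpn reached their promoters with an edge only. By that rule 57.7% of protein-coding genes had an accessible promoter. Annotated starts of the members, grouped by a reach of 100 bp, formed 43 groups, of which 15 (34.9%) had a region in the promoter, where 41.1% of such groups of protein-coding genes and 18.5% of those of lincRNA genes had one. At Plagl1, for example, the group with the most transcripts, 21, began 333 bp before the edge of the closest region.

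At the H19 locus the list had no region from 142565460 to 142605213 on chromosome 7, a stretch of 39.8 kb with the gene, its promoter and its control region. The nearest region to an H19 TSS was H19 region 3 (chr7:142565266-142565460, 195 bp), 11.1 kb away, in intergenic sequence downstream of the gene. The H19 control region lay 14.7 kb from it and was 50.2% GC with 60 CpGs, more than in the same window of most genes, since 2.67% of 21938 protein-coding genes had as many. Most genes had no region in that window either, as the median covered length was 0 bp. The authors had removed regions that overlapped peaks of a ChIP-seq input, and the list does not tell a removed region from one never found.

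The H19 control region is shown by its CTCF core matches, since no listed region represents it. There were 5 matches in its 2001 bp, and 0.365% of protein-coding genes had as many in the same window, where the median was 1. Each is given with 16 bases on either side, on the strand of H19 (GRCm38, minus strand), and capitals mark the CTCF core GGNGGCAG and the ZFP57 hexamer TGCCGC.
H19 control region CTCF match 1, chr7:142582018-142582057, minus strand: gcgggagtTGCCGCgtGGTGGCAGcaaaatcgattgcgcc
H19 control region CTCF match 2, chr7:142581893-142581932, minus strand: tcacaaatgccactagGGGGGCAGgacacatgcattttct
H19 control region CTCF match 3, chr7:142581774-142581813, minus strand: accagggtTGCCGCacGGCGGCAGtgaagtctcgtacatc
H19 control region CTCF match 4, chr7:142580748-142580787, minus strand: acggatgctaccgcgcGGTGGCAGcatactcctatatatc
H19 control region CTCF match 5, chr7:142580293-142580332, minus strand: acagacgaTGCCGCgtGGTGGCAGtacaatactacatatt
The matches lay 3.90, 3.77, 3.65, 2.63 and 2.17 kb upstream of the reference TSS. In matches 1, 3 and 5 the hexamer TGCCGC preceded the CTCF core by 2 bases. Among the 19347 CTCF core matches inside all listed regions, 17 (0.0879%) had this arrangement, and the same window of 2 protein-coding genes contained it. The spacing counted is the one seen in the H19 matches, so its rarity elsewhere is partly built in. A CTCF core whose open position is C, as in match 3, itself includes the hexamer on the other strand, so these motifs overlap there. In match 4 the letters taccgc stood where matches 1, 3 and 5 had TGCCGC, so CCGC preceded the core there too. The core searched for is short, and whether the letters before it belong to a longer CTCF site was not examined. The hexamer therefore need not be a motif apart from the CTCF site. These are descriptions of letters, and say nothing of whether either protein was bound.

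The Dlk1-Meg3 intergenic site, the other site methylated in sperm, had short regions only. Meg3 region 1 (131 bp) was 15.1 kb and Meg3 region 2 (233 bp) 13.4 kb upstream of the Meg3 reference TSS, and together they covered 6.07% of the 6001 bp. Of the 149 CpGs of the window, 18 were inside them. Meg3 region 1 was among the narrowest in the list, with 0.820% of regions as narrow or narrower. Between this site and the Meg3 promoter the list had Meg3 region 3, in a promoter of the annotated gene Gm27528, and Meg3 region 4, 1.72 kb upstream of the TSS.

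The ZFP57 hexamer was more frequent in the control-site regions than in the other members. It occurred in 7 of 10 of them (70.0%), in 9 of the other 39 members (23.1%), in 14.6% of all regions and in 34.4% of all promoter regions. In the central 300 bases only, the share of the other members was 10.3% (4 of 39), near the 9.71% of all regions. That of the control-site regions was again 70.0%. Most control-site regions with the hexamer were narrower than 300 bases or little wider, so their share could hardly change. Since the hexamer has a CpG in it, matches were also set against CpG content: the control-site regions had 25 matches for 202 CpGs, or 12.4 per 100 CpGs. The other members had 1.50 per 100 CpGs, all regions 1.22 and all promoter regions 1.21. The density in control-site regions thus stood apart from that of the other members, which was near the list's. The sites were chosen as known imprinting control sites, where ZFP57 helps to keep methylation, so this difference is partly built in. Snrpn region 2 held 9 of the 25 matches and Mest region 4 held 5.

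**Figure D4:**
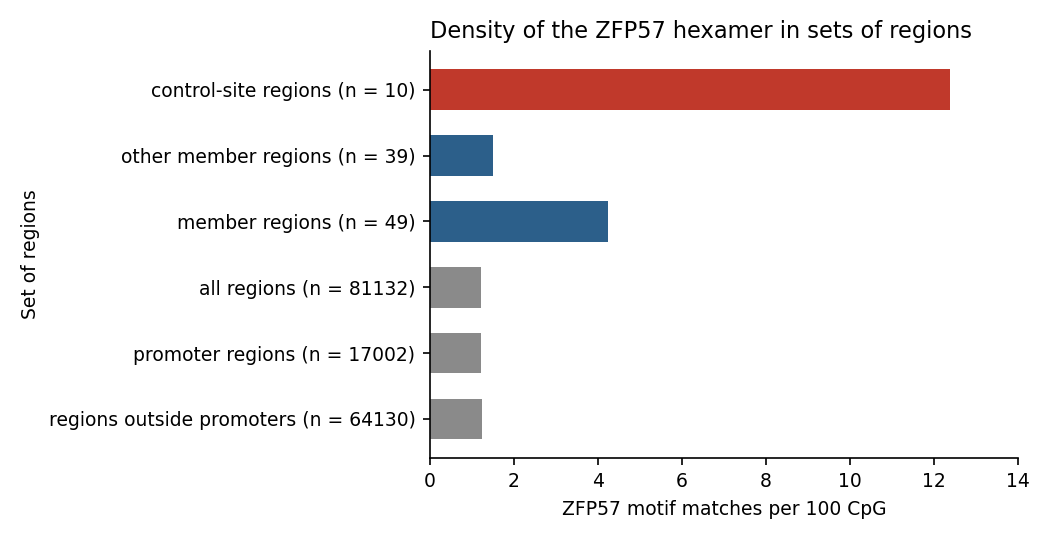
Matches of the ZFP57 hexamer TGCCGC on both strands per 100 CpGs in sets of regions, with the number of regions in each set. The 10 control-site regions reach 12.4 per 100 CpGs, and the bars of all regions, promoter regions and regions outside promoters end between 1.21 and 1.23.

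The copies were spread over most of the promoter sites. Snrpn region 2 had 9 copies in 1077 bp, and none of the other regions among the 2787 of like width had as many. Mest region 4 had 5 in 338 bp (0.0216% of regions of like width), and Plagl1 region 5 and Igf2r region 3 had 3 each in 219 and 200 bp (0.0507% and 0.0479%). Against regions with a similar CpG count in place of width, again no other region matched Snrpn, and the shares were 0.192% for Mest, 0.472% for Plagl1 and 0.441% for Igf2r region 3. Peg3 region 4 also had 3 copies (0.183% of regions of like width and 0.523% of those with a similar CpG count). Igf2r region 2 and Meg3 region 2 had 1 each, which was less unusual. By width 18.1% and 5.58% of regions had as many, and by CpG count 22.3% and 17.4%. Kcnq1ot1 region 2, Mest region 3 and Meg3 region 1 had none.

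Copies in the control-site windows lay both inside and outside the regions. The 8 windows held 59 matches, of which 25 were inside a listed region. The share of a window's CpGs inside regions, given in brackets, is a scale for this. At Snrpn 9 of 10 matches were inside (81.3%), at Mest 5 of 12 (39.1%) and at Airn 4 of 7 (45.8%). At Peg3 (20.7%) and at Plagl1 (17.0%) 3 of 6 were inside. All 3 in the Kcnq1ot1 window (30.8%) were outside, as were 9 of 10 in the Dlk1-Meg3 site (12.1%). All 5 in the H19 control region were outside, since it had no region. In windows of 2001 bp around the reference TSS of protein-coding genes the median was 0 matches, and 0.00912% of genes had the 12 of Mest or more, 0.0273% the 10 of Snrpn, 0.169% the 7 of Airn and 0.474% the 6 of Peg3 and of Plagl1. The 3 matches of Kcnq1ot1 were less unusual, as 7.33% of genes had as many. The CTCF core occurred 12 times in the 8 windows, and none of these matches was inside a region. The 5 matches in the H19 window could not be, as it had no region. The others were 3 at Airn, 3 in the Dlk1-Meg3 site and 1 at Peg3. Regions covered only 38.3%, 6.07% and 14.7% of these windows.

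**Figure D5:**
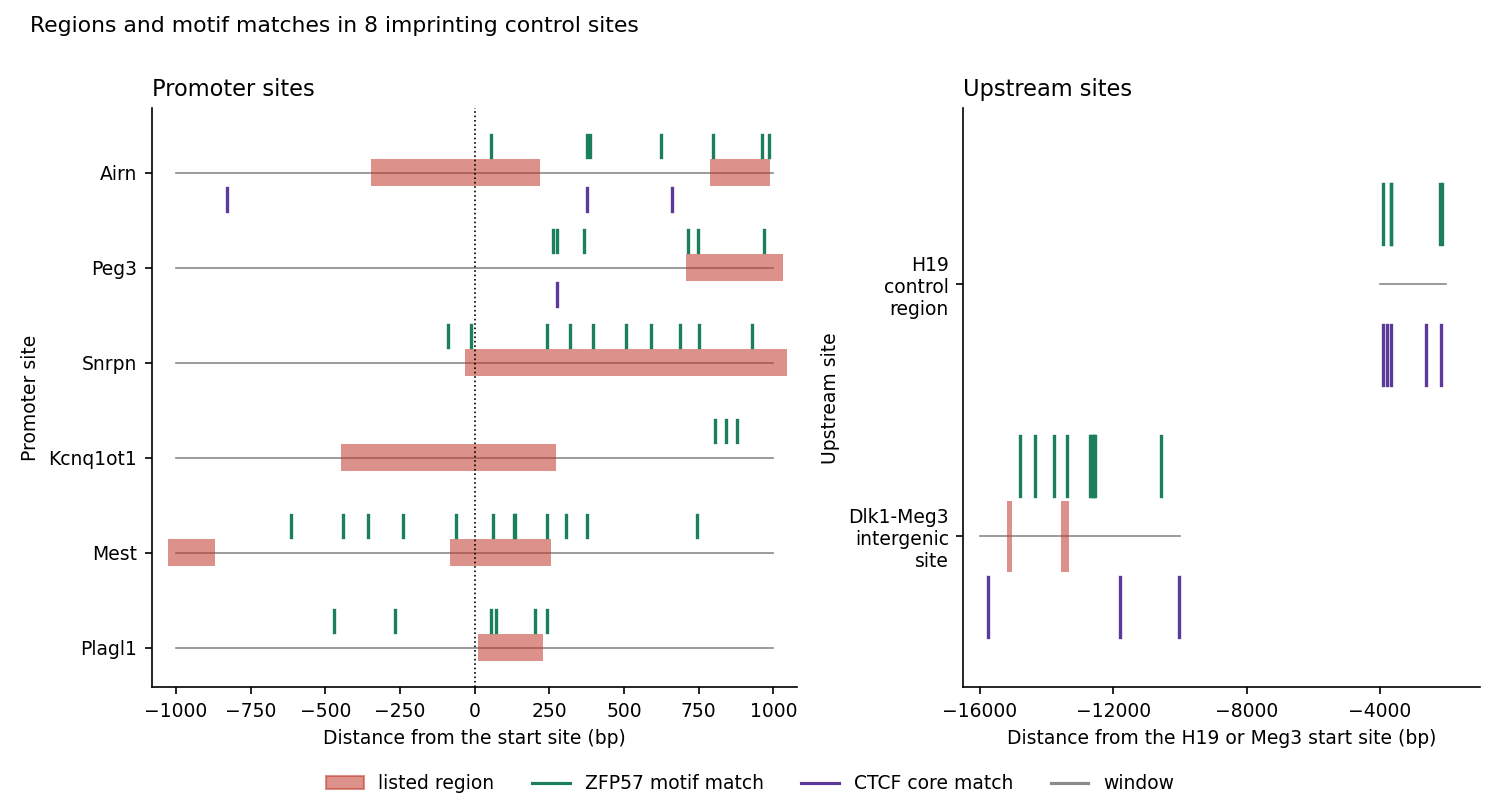
Regions (red) and matches of the ZFP57 hexamer (green) and the CTCF core (purple) in the 6 promoter-site windows (left) and the upstream sites of H19 and Meg3 (right), by distance in bp from the TSS in the direction of transcription. Of the 10 ZFP57 matches of Snrpn 9 fall in its region, and the H19 window has matches of both motifs and no region.

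At the Peg3 locus the widest member region carried a run of YY1 motifs. YY1 is a zinc finger factor known to bind repeated sites in the first intron of Peg3. Peg3 region 3 (chr7:6727248-6729004), in that intron with its centre 2.29 kb downstream of the TSS, had 10 matches of GCCATNTT, and none of the other regions among the 203 of like width had as many. The 8-base word GCCATCTT made up 9 of them, at spacings of 30 to 438 bp, and 1.97% of regions of like width repeated a word as often. Its 200 bases with the most matches carried 2 YY1 motifs and 1 ZFP57 hexamer, marked in capitals, on the strand of Peg3 in GRCm38.
Peg3 region 3, chr7:6728401-6728600, minus strand: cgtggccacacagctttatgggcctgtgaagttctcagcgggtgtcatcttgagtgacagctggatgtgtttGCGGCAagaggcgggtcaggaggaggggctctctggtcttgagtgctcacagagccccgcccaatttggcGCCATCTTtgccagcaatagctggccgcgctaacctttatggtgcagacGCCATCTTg
Peg3 region 4 added 2 YY1 matches, so that 12 of the 15 matches over all members were at Peg3. The other 3 were in Snrpn region 1, H19 region 3 and Meg3 region 6. Over the list 8.62% of regions had the motif, and over members 5 of 49 (10.2%).

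Motifs of the sorted factors did not set the member regions apart from the list. The octamer ATGCAAAT bound by OCT4 occurred in 0 of 49 member regions, where 2.66% of all regions had it. A SOX motif occurred in 7 (14.3%), where 16.0% of all regions had it, and in none of the control-site regions. The CTCF core was in 9 members (18.4%), all outside the control sites, against 19.8% of all regions. In 24 members none of these motifs, nor the ZFP57 hexamer or the YY1 motif, was found, which says only that these letters were absent from the regions.

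The remaining regions of Igf2, Dlk1 and Plagl1 lay both in and outside the genes. Igf2 regions 1 to 3 were within the gene body, with CpG ratios of 0.883, 0.797 and 0.959, and Igf2 region 3 lay in a promoter of the antisense gene Igf2os. Those shared with H19, H19 regions 4 and 5, were in introns of the noncoding gene Gm33148 with ratios of 0.258 and 0.0887. Dlk1 region 4 was in an exon of Dlk1, and the region shared with Meg3, Dlk1 region 5 (chr12:109500122-109500584, 463 bp), lay 40.5 kb from the closest Dlk1 TSS in an intron of the noncoding gene Gm34081. Plagl1 regions 3 to 8 were all in introns of Plagl1, and Plagl1 region 3 (1202 bp) began 15 bp downstream of the most upstream TSS. CpG ratios thus varied within a single cluster, from the high values in Igf2 to the low ones between Igf2 and H19.

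Genes that share a cluster with the members had accessible promoters at a like rate. Of 23 cluster partner genes, 16 (69.6%, 49.1 to 84.4%) had a region in the promoter, near the 66.5% of protein-coding genes. The 7 without were Slc22a2, Rtl1, Rian, Mirg, Ndn, Th and Ins2. Slc22a2, a cation transporter gene of the Igf2r cluster expressed in kidney, had no region within its locus window, and the closest was 76.6 kb from a TSS. Rtl1, Rian and Mirg, which lie downstream of Meg3 in the Dlk1-Meg3 cluster, had 1 region each by the locus rule, 5.11, 8.72 and 1.91 kb from a TSS. Ndn, next to Magel2 and Mkrn3 in the Snrpn cluster, had its closest region 1.51 kb from the TSS. Th, the tyrosine hydroxylase gene, and Ins2, an insulin gene, lie beyond Igf2 on the side away from H19, with regions 1.41 and 5.35 kb from a TSS. Usp29, which is transcribed away from Peg3, had its promoter region in common with the Peg3 site, Peg3 region 4.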

How the data were processed

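The study sorted SBROS ES cells into SHOH, SHOL, SLOH and SLOL populations and made 3 ATAC-seq replicates of each. Per the submitters' processing notes and the study's methods, the authors aligned reads to mm10 with STAR (2.5.3a), removed duplicates with Picard, found peaks per library with MACS2 (2.1.1.20160309), merged them with BEDOPS and dropped those that overlapped peaks of a ChIP-seq input. A shift of read ends for the Tn5 insertion is not given in the sources used here. The deposited list has 3 columns, chromosome, start and end, and no measured value, so no population was compared and no test was run. The 4 ChIP-seq samples were not used here.

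No region ran past the end of its GRCm38 chromosome. Regions and GENCODE M21 were read with Python (3.11.15), numpy (2.4.6) and pandas (2.3.3), sequences with pysam (0.24.0) and samtools (1.23.1), intervals came from scipy (1.17.1) and plots from matplotlib (3.10.9). Each region was classed by its midpoint, with promoters ranked over exons, introns and intergenic sequence. Intervals of shares are 95% Wilson intervals, and those of medians are 95% binomial order-statistic intervals. The reference TSS is the one within 100 bp of the most annotated starts. Motifs were counted on both strands. Alternatives tried were other locus distances and promoter sizes, membership by any overlap or by the centre, a minimum width, joining of nearby regions, TSSs of basic transcripts only, and motifs in the central bases or on the plus strand only. The scripts were tested on simulated data. Genes named are the 10 members, genes of the lists without an accessible promoter or whose promoter region is described, and genes that are closest to described regions, contain them or have them in a promoter; Gm27528, Gm33148, Gm34081 and Mir136 come under the last. The members, lists and rules were chosen with earlier results of these data known. The class and promoter shares over protein-coding loci and the shares of grouped starts in other genes were added after the data had been seen.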

Additional observations from a re-analysis of the deposited data

How the results depend on the processing

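Across 9 results and 44 alternatives, 41 values stayed within 1.5 times the count given above or within the 95% interval of the share or median, 14 of them higher, 14 lower and 13 equal. The count of member regions ranged from 34 within 25 kb to 68 within 100 kb of a TSS. With promoters of 2000 bp to either side of a TSS the share of member regions in promoters was 59.2%, against 34.0% of all regions and 39.7% of regions at protein-coding loci (50.1% summed over loci). With the centre of a region required in the promoter, 5 of 10 member genes had an accessible promoter. In the 300 bases around the centre only, 10.3% of the other member regions had TGCCGC, against 9.71% of all regions. The control-site regions stayed at 70.0%, but most of them were narrower than 300 bases or little wider. With windows of 500 bp to either side, 6 of 8 control sites had a region, Peg3 being lost. The shares of comparison genes without a region, given above, hold only for promoter sites with 1000 bp to either side. No paired analysis was possible because the list pools all libraries and no test was run. The list gives no read counts, so absence of a region sets no upper limit on accessibility.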

Other observations

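Other imprinted genes and the factors that maintain imprints were looked up by the same promoter rule. Of 16 imprinted genes of other clusters, 14 (87.5%, 64.0 to 96.5%) had an accessible promoter, where 66.5% of protein-coding genes had one, and Nnat, a small membrane protein gene, and Peg13, a noncoding RNA gene, had none. The closest region was 5.00 kb from a Nnat TSS and 63.3 kb from that of Peg13. The median number of regions by the locus rule was 8.5 over these 16 genes, against 5 over the members.

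Of 10 genes for factors that maintain or read imprints, 9 (90.0%, 59.6 to 98.2%) had an accessible promoter, beside the same 66.5%, with regions of 938 bp at Zfp57, 604 bp at Zfp445, 1180 bp at Dnmt1 and 1284 bp at Ctcf. Dppa3, which protects maternal methylation in the early embryo, had none, and its closest region was 1.53 kb from a TSS, with 14 regions by the locus rule.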
